A study of Mus musculus with 15 samples.

Results

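Antioxidant and glutathione genes were followed in the left hemibrain of mice fed 1 of 3 diets. The set was a list of 43 genes named by symbol, covering peroxiredoxins, superoxide dismutases and catalase, glutathione peroxidases, glutathione synthesis, glutathione transferases, thioredoxins and glutaredoxins, the NRF2 regulators and their quinone and haem targets, and ferritin. Members were found through the RefSeq identifier of each array probe, and of several probes for a gene the one brightest on average in Cy5 was used. Of the 43 genes, 42 were measured, among 22562 genes and unnamed probes tested on the array. Slc7a11, the cystine carrier, had 1 probe that was well above background on at most 2 of the 15 arrays and was not measured.

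The animals were male C57BL/6j mice that went onto their diet at 3 weeks of age and stayed on it for 24 weeks, with 5 arrays per diet. The enriched diet (ERD) had n-3 and n-6 polyunsaturated fatty acids at 7 to 1, the balanced diet (BLD) at 1 to 1 and the standard diet (STD) at 1 to 6. Every array carried hemibrain RNA in Cy5 and the same reference RNA, pooled from 11 mouse cell lines, in Cy3, so that each value is a log2 ratio of hemibrain to reference. The comparisons ask which hemibrain transcripts differ with the dietary fatty acid ratio. All groups share the strain, the sex and the reference, and no other allele or treatment is given. The sample titles carry the word CONTROL in every diet group, so the groups were taken from the diet label.

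Polyunsaturated fatty acids in brain membranes are easily oxidised, and cells remove the resulting peroxides with enzymes that draw on glutathione and thioredoxin. Superoxide dismutases turn superoxide into hydrogen peroxide, which catalase, peroxiredoxins and glutathione peroxidases then break down, and glutathione reductase and thioredoxin reductases restore the oxidised cofactors with NADPH. The transcription factor NRF2, encoded by Nfe2l2 and held back by KEAP1, drives many of these genes through a short promoter sequence known as the antioxidant response element.

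Promoter windows are given for Prdx5, the member that passed the test, and for Gstm5, Gstm7 and Txnrd1, members with low p-values whose window holds the core of the antioxidant response element. Each runs 5′ to 3′ on the gene's strand from 250 bases before to 50 bases after the annotated start (RefSeq, GRCm38.p6), and capitals mark a match to TGACNNNGC on either strand. The windows are chr19:6910057-6910356 for Prdx5 (minus strand), chr3:107895604-107895903 for Gstm5 (plus strand), chr3:107931565-107931864 for Gstm7 (minus strand) and chr10:82858956-82859255 for Txnrd1 (plus strand). Gstm7 has 1 further annotated start and Txnrd1 has 2, whose windows hold no match and are not shown.
Prdx5: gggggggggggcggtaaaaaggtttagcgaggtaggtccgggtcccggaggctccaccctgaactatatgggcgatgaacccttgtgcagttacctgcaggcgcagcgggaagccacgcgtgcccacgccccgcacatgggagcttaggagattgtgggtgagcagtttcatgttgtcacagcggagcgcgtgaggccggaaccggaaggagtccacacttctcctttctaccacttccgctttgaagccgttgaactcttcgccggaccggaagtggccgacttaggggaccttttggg
Gstm5: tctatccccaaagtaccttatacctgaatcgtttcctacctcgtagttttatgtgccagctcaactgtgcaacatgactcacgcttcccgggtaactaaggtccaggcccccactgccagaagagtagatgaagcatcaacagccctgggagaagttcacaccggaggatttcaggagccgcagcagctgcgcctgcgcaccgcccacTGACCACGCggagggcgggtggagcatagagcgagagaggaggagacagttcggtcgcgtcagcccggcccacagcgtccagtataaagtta
Gstm7: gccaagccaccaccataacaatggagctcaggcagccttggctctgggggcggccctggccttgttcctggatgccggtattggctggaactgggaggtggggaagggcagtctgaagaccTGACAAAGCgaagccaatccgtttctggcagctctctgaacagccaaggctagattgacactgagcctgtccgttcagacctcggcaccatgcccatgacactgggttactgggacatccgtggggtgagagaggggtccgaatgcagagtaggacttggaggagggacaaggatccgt
Txnrd1: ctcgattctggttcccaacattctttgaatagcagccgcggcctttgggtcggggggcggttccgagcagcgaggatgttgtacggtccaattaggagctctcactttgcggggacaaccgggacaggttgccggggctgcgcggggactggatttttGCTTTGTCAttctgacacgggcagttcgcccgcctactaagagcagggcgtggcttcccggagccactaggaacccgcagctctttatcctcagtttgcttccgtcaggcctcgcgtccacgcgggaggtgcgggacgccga

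In Gstm5 the match TGACCACGC began 42 bases before the start, in Gstm7 TGACAAAGC began 129 bases before it, and in Txnrd1 the match lay on the other strand, as GCTTTGTCA, from 92 bases before the start. Each position is counted from the start of the window shown. The further Gstm7 start (window chr3:107931768-107932067) lies upstream of the Gstm7 match, which therefore comes after that start. The same holds for a further Txnrd1 start (window chr10:82833701-82834000). The Prdx5 window held no match, which says only that these letters are not in it. The letters of the motif overlap those of the AP-1 site. Windows were found for 36 of the 43 members, and none for Prdx6, Sod3, Gsr, Gclc, Gsta4, Msra and Hmox1. A match was present in at least 1 window of 9 members (Gclm, Gstm5, Gstm7, Mgst1, Nfe2l2, Prdx1, Sod1, Srxn1 and Txnrd1). That is 25% of the 36, against 14% of the 27025 genes with a window of the same length. Some genes have several windows, and counted by window the shares were 18.8% of 48 and 12.4% of 32851. The difference of ERD from STD in these 9 members ran from -0.61 (Txnrd1) to 0.66 (Gstm5) on the log2 scale, with 5 above 0 and a median of 0.02. The 26 measured members whose windows held no match had the same median, 0.02. A match is a description of the sequence and does not show that a factor binds there.

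The number of spots well above background in Cy5 ranged from 17526 on ERD 1 to 31764 on BLD 4. There were 8 slides and 2 days of scanning, and slide 1 held ERD 4, BLD 2 and BLD 3 together. These 3 arrays and BLD 4 were scanned on day 2, and the other arrays, among them all 5 STD arrays, on day 1. ERD 1 resembled the other arrays least, with a median r across genes of 0.88 where the highest such median was 0.956. Of the measured members, 33 were well above background on all 15 arrays and 0 were saturated. Brain RNA was evident in marker genes. The STD means of 8 neuronal markers ran from 2.27 (Snap25) to 8.55 (Syt1), all above the cell line reference. Those of 8 astrocyte markers ran from -0.65 (Gja1) to 5.33 (Slc1a3), with only Gja1 below the reference. In whole tissue, fewer cells of a type and less RNA per cell cannot be told apart.

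On the standard diet the members lay on both sides of the reference. All 5 STD arrays were above 0 for 16 members, below 0 for 19 and on both sides for 7. After normalization the highest mean ratios were those of the glutathione transferases Gstm5 (2.0 ± 0.37, SD, n = 5) and Mgst3 (1.63 ± 0.48), the secreted peroxidase Gpx3 (1.47 ± 0.30) and the methionine sulfoxide reductase Msra (1.43 ± 0.28). The lowest belonged to Gpx8 (-2.92 ± 0.11) and Prdx4 (-2.71 ± 0.11), both peroxidases of the endoplasmic reticulum, to the inducible haem oxygenase Hmox1 (-2.66 ± 0.24) and to Nfe2l2 (-2.34 ± 0.18). The order depends on the processing. In the deposited log2 ratios Gpx3 was at 4.51 to 5.90 on the STD arrays and Gstm5 at 1.95 to 2.42. These ratios are relative to the reference and do not rank the genes by abundance.

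Across the set, 1 of the 42 members was called between ERD and STD. Prdx5 was higher in ERD at an adjusted p under 0.05 in limma, where 49 of all 22562 genes, 0.217%, were called. At an unadjusted p under 0.05 there were 14 members (33.3%), 7 higher and 7 lower, where all genes gave 14.6%, 7.09% higher and 7.54% lower. Without ERD 1 and ERD 2 there were 7 such members (16.7%), against 12.2% of all genes. With single arrays left out the share ran from 26.2% (without STD 5, all genes 13.1%) to 40.5% (without ERD 3, all genes 16.2%). The 5 ERD arrays did not overlap the 5 STD arrays in 6 members, Prdx5, Gpx4, Hmox2 and Cat (higher) and Sod2 and Prdx6 (lower), where 3.78% of all genes showed no overlap. The median log2 difference was -0.02 over the members and 0.02 over all genes, with 21 of 42 members above 0. The size of the difference regardless of sign had a median of 0.24 in the members and 0.16 in all genes. Members lay in both directions around a median near 0.

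Between BLD and STD, 0 of the 42 members were called in limma, against 0.00886% of all genes. An unadjusted p under 0.05 was reached by 8 members (19%), 6 higher and 2 lower, where all genes gave 10.8%, 7.77% higher and 3.07% lower. Prdx5, Gstp1 and Gstm7 had no overlap between the diets, where all genes gave 2.87%, though Gstm7 did overlap in the deposited ratios. Between ERD and BLD, 0 members were called, against 0% of all genes, and 7 members (16.7%) had an unadjusted p under 0.05, 1 higher and 6 lower in ERD, where all genes gave 10.4%, 2.63% higher and 7.75% lower. In that comparison 0 members were free of overlap, where all genes gave 1.37%. The F test over the 3 diets also called 0 members, against 0.0488% of all genes, with the lowest adjusted p at 0.0858 for Prdx5. The comparisons share arrays, so their values are given side by side and not as independent evidence.

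**Figure D1:**
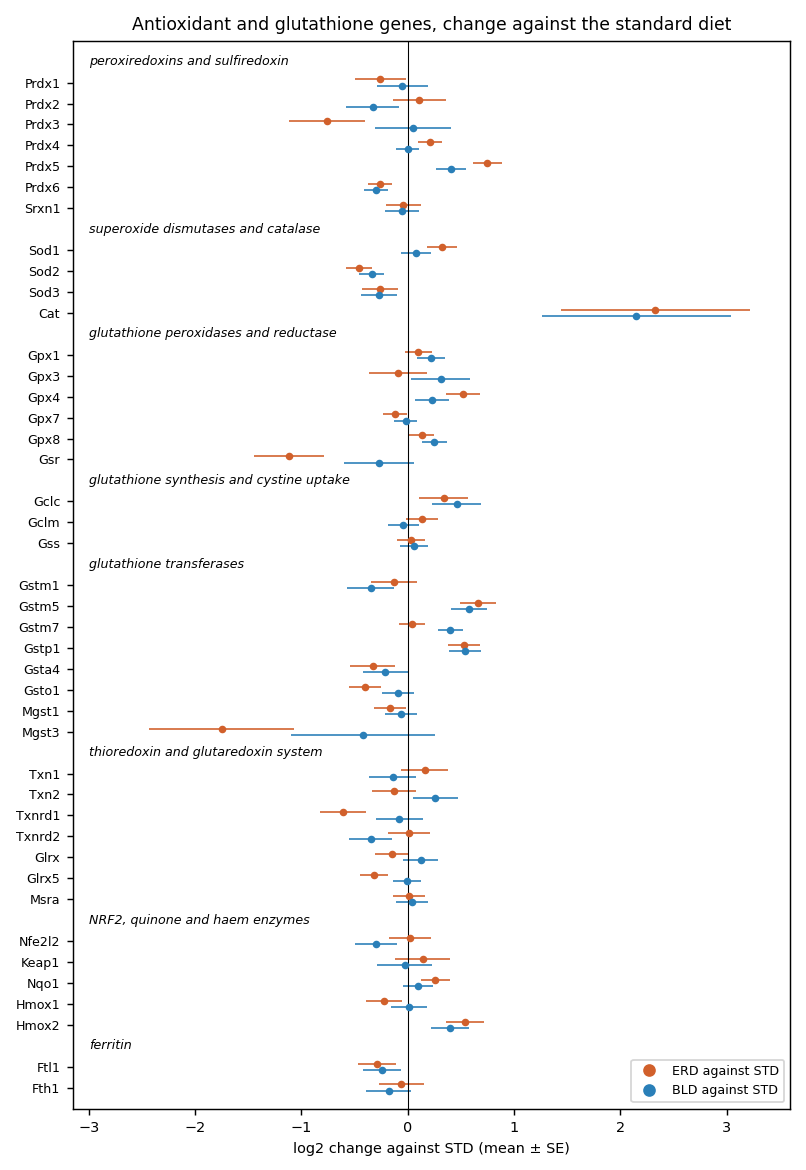
Log2 difference from STD (x axis, mean ± SE from limma) of the 42 measured members, grouped by family, for ERD (orange) and BLD (blue). Most points lie within 0.5 of 0, and Cat, Mgst3, Gsr and Prdx3 stand out with wide error bars.

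Peroxiredoxins reduce hydrogen peroxide and organic peroxides through a reactive cysteine. Prdx5, which works in mitochondria, peroxisomes and the cytosol, had ratios of 0.75, 0.75, 1.16, 1.05 and 1.25 on the ERD arrays 1 to 5. Its BLD ratios were 0.58, 0.78, 0.49, 0.88 and 0.51, and its STD ratios -0.11, 0.35, 0.42, 0.33 and 0.19. Every ERD array and every BLD array was above every STD array, and the ERD and BLD arrays overlapped. Prdx5 rose by 0.75 ± 0.14 (SE) on the log2 scale in ERD against STD, 1.69-fold, with a 95% interval of 0.47 to 1.04 and an adjusted p of 0.0402 in limma. BLD was 0.41 ± 0.14 above STD (adjusted p = 0.393) and ERD 0.35 ± 0.14 above BLD (adjusted p = 0.432). The difference between ERD and STD was also present within each slide that held both diets, at 0.40 on slide 4, 1.26 on slide 5 and 0.92 on slide 7. From Cy5 alone it was 0.77, and the reference channel differed by 0.11. The call stood close to the threshold: it was lost when any of 9 of the 15 arrays was left out, each of the 5 STD arrays, ERD 4, ERD 5, BLD 2 and BLD 4, with adjusted p of 0.0595 to 0.135. It was lost as well with a block for slide (0.81, adjusted p = 0.437) or for scan day (0.73, 0.0606) and without slide 1 (0.74, adjusted p = 0.158). Prdx5 was measured by a single probe and 1 spot per array.

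The other peroxiredoxins gave no call in limma. Prdx6, the cytosolic enzyme that also repairs oxidised phospholipids, had ratios of 0.76, 0.73, 0.76, 0.65 and 0.69 in ERD, 0.30, 0.84, 0.67, 0.87 and 0.73 in BLD and 1.05, 0.96, 0.85, 1.11 and 0.94 in STD. The ERD arrays were all below the STD arrays and varied little, while BLD 1 was low and BLD 4 overlapped STD. The difference was -0.26 ± 0.11 (SE) for ERD and -0.30 ± 0.11 for BLD against STD, with adjusted p of 0.285 and 0.412. Its further probes differed from the one used, at 0.12 and -0.42 for ERD against STD and 0.30 and -0.05 for BLD against STD. Prdx1 and Prdx2, the abundant cytosolic forms, were at -0.26 and 0.11 in ERD against STD, Prdx4 at 0.21 and Srxn1, the sulfiredoxin that restores overoxidised peroxiredoxins, at -0.04. In BLD against STD these were at -0.05, -0.33, 0.00 and -0.05. Prdx3, the mitochondrial form, was at -0.76 in ERD and 0.05 in BLD against STD.

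Among the superoxide dismutases the mitochondrial manganese enzyme Sod2 had the lowest p-value. Its ratios were -0.41, -0.40, -0.31, -0.48 and -0.34 in ERD, -0.60, -0.29, -0.27, -0.04 and -0.11 in BLD and 0.03, -0.03, -0.08, 0.02 and 0.43 in STD. ERD lay below STD on all arrays and BLD 4 reached into the STD range. The difference was -0.46 ± 0.12 (SE) for ERD against STD, 0.725-fold, with an adjusted p of 0.124, and -0.34 ± 0.12 for BLD against STD, with an adjusted p of 0.408. Within slides ERD was below STD by a similar amount, at -0.37 on slide 4, -0.34 on slide 5 and -0.37 on slide 7. The cytosolic Sod1 was at 0.32 ± 0.14 in ERD against STD (adjusted p = 0.322) and 0.08 in BLD. The extracellular Sod3 was at -0.26 and -0.27, and 1 STD array (STD 5, 1.50) was far above the other 4.

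Glutathione peroxidases use glutathione to reduce peroxides, and Gpx4 acts on lipid hydroperoxides within membranes. Gpx4 had ratios of 1.29, 1.28, 1.59, 1.36 and 1.50 in ERD, 0.47, 1.23, 1.21, 1.33 and 1.34 in BLD and 0.84, 0.67, 1.00, 0.72 and 1.20 in STD. The 5 ERD arrays were above the 5 STD arrays, and all BLD arrays but BLD 1 were above the highest STD array. The difference was 0.52 ± 0.16 (SE) for ERD, 1.43-fold, with an adjusted p of 0.181, and 0.23 ± 0.16 for BLD, with an adjusted p of 0.597. On slides 4, 5 and 7 ERD exceeded STD by 0.61, 0.75 and 0.77. Gpx1, the main cytosolic form, was at 0.10 in ERD and 0.22 in BLD against STD, Gpx3 at -0.09 and 0.31, Gpx7 at -0.12 and -0.02 and Gpx8 at 0.13 and 0.25. The smallest adjusted p of these 4 was 0.471, for Gpx8 in BLD. Gpx3 had no value on BLD 1, where its spot was left out as an outlier. From the processed signals Gpx3 was at -0.86 in ERD and -1.42 in BLD against STD. The Cy3 reference of Gpx3 differed by 0.12 and 0.32.

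Glutathione is made by glutamate-cysteine ligase, with the catalytic subunit Gclc and the modifier Gclm, followed by the synthetase Gss. Gclc had ratios of 0.06, 0.16, -0.68, -0.03 and -0.09 in ERD, 0.63, -0.09, -0.44, -0.11 and -0.01 in BLD and -0.54, 0.17, -0.69, -0.22 and -1.01 in STD. The 3 diets overlapped, with STD 2 as high as the highest ERD array. The difference from STD was 0.34 ± 0.23 (SE) in ERD and 0.46 ± 0.23 in BLD (adjusted p = 0.511 and 0.477). Gclm was at 0.13 in ERD and -0.04 in BLD, and Gss at 0.03 and 0.06.

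Glutathione transferases couple glutathione to reactive compounds, among them products of lipid peroxidation. Gstm5, a mu-class enzyme of brain and testis, had ratios of 2.60, 2.94, 2.45, 2.68 and 2.64 in ERD, 2.30, 2.43, 2.88, 2.54 and 2.78 in BLD and 1.92, 2.49, 1.60, 2.27 and 1.74 in STD. STD 2 lay within the range of the other diets and the other 4 STD arrays lay below all ERD and BLD arrays. The difference was 0.66 ± 0.17 (SE) for ERD and 0.58 ± 0.17 for BLD against STD, with adjusted p of 0.117 and 0.366. Within slides ERD exceeded STD by 0.45, 0.53 and 0.38 (slides 4, 5 and 7).

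Gstp1, the pi-class enzyme, had ratios of -0.15, 0.44, 0.48, 0.45 and 0.19 in ERD, 0.46, 0.16, 0.48, 0.16 and 0.17 in BLD and -0.47, -0.08, -0.55, -0.19 and 0.05 in STD. BLD did not overlap STD, and ERD 1 alone of the ERD arrays fell within the STD range. The differences were 0.53 ± 0.15 (SE) and 0.54 ± 0.15 against STD, with adjusted p of 0.148 and 0.324. A further Gstp1 probe gave 0.00 for ERD and 0.20 for BLD. Gstp2, a close copy, was at -0.06 and -0.42, and whether probes of such paralogs read more than 1 gene was not tested. The mean over both Gstp1 probes was 0.27 in ERD against STD.

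In Gstm7, another mu-class enzyme, the BLD arrays did not overlap the STD arrays and the ERD arrays did. Its ratios were 0.83, 0.55, 0.77, 0.96 and 1.00 in BLD, 0.42, 0.55, 0.30, 0.34 and 0.50 in STD and 0.07, 0.53, 0.56, 0.50 and 0.67 in ERD. The lowest BLD array lay just above the highest STD array, and the probe was not above background on ERD 1. BLD was 0.40 ± 0.12 (SE) above STD (adjusted p = 0.368), ERD 0.04 ± 0.12 above STD (adjusted p = 0.897) and ERD 0.36 below BLD, a difference of -0.36 ± 0.12 (adjusted p = 0.391). From the processed signals the BLD difference was 0.16, and a further probe gave 0.13. In the deposited log2 ratios BLD and STD overlapped, at 2.23 to 2.99 in BLD and 2.04 to 3.19 in STD. The probe used was dim, with Cy5 signals above local background of 22.6 to 46.3 in BLD and 11.2 to 22.2 in STD.

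Gsto1, an omega-class enzyme that also reduces dehydroascorbate, had ratios of -2.42, -2.21, -1.88, -2.25 and -2.31 in ERD, -1.39, -1.97, -2.09, -1.88 and -2.16 in BLD and -1.61, -1.78, -1.78, -1.93 and -1.96 in STD. ERD 3 lay within the STD range and the other 4 ERD arrays below it. ERD differed from STD by -0.40 ± 0.15 (SE, adjusted p = 0.231) and BLD by -0.09. Gstm1 was at -0.13 in ERD and -0.35 in BLD, Gsta4, which clears the lipid peroxidation product 4-hydroxynonenal, at -0.33 and -0.21, and the microsomal Mgst1 at -0.17 and -0.06.

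**Figure D2:**
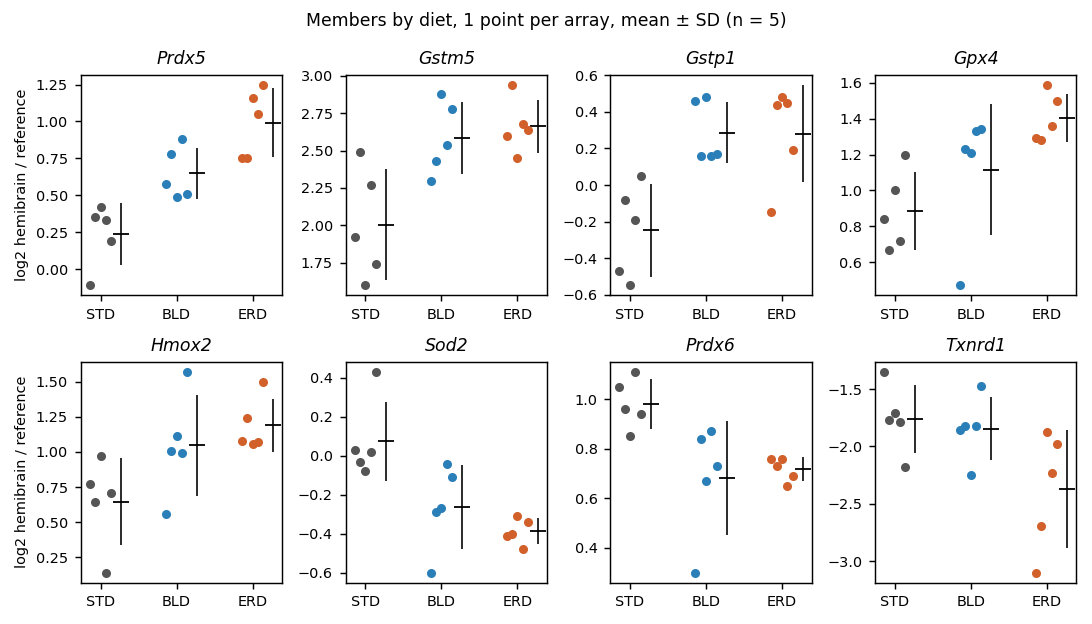
Log2 ratio of hemibrain to reference (y axis) of 8 members by diet, 1 point per array, with the mean ± SD of 5 arrays as black bars. ERD lies above STD in Prdx5, Gpx4 and Hmox2 and below STD in Sod2 and Prdx6 without overlap, and Gstm5, Gstp1 and Txnrd1 overlap.

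Thioredoxins and glutaredoxins reduce protein disulfides, and thioredoxin reductases keep thioredoxin active. Txnrd1, the cytosolic reductase, had ratios of -3.10, -2.69, -1.87, -2.23 and -1.98 in ERD, -1.86, -1.82, -2.25, -1.82 and -1.47 in BLD and -1.35, -1.77, -1.71, -1.79 and -2.18 in STD. ERD 1 and ERD 2 were the lowest of all arrays and ERD 3 and ERD 5 lay within the STD range. The difference was -0.61 ± 0.22 (SE) for ERD and -0.08 ± 0.22 for BLD against STD (adjusted p = 0.231 and 0.914), and -0.27 for ERD without ERD 1 and ERD 2. Glrx5, a mitochondrial glutaredoxin of iron-sulfur cluster assembly, had ratios of 0.18, 0.11, 0.56, 0.25 and 0.26 in ERD, 0.51, 0.48, 0.64, 0.65 and 0.59 in BLD and 0.64, 0.28, 0.77, 0.36 and 0.89 in STD. Of the ERD arrays only ERD 3 reached the BLD range. The difference was -0.32 ± 0.13 (SE) for ERD against STD (adjusted p = 0.269) and -0.01 for BLD against STD, and it was -0.05 for ERD from the processed signals. Txn1 was at 0.16 in ERD and -0.14 in BLD, its mitochondrial counterpart Txn2 at -0.13 and 0.26, Txnrd2 at 0.01 and -0.35, Glrx at -0.15 and 0.12 and Msra at 0.01 and 0.04.

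NRF2, its repressor and a pair of its usual targets gave no call. Nfe2l2 was at 0.02 ± 0.20 (SE) in ERD and -0.30 ± 0.20 in BLD against STD, and Keap1 at 0.14 ± 0.26 and -0.03 ± 0.26. Nqo1, the quinone reductase often read as an NRF2 target, was at 0.26 ± 0.14 and 0.10 ± 0.14, and Hmox1, the inducible haem oxygenase, at -0.22 ± 0.17 and 0.01 ± 0.17. The Nqo1 probe was not above background on ERD 1 and STD 5. The ERD difference of Nqo1 was 0.01 from Cy5 alone, -0.08 from the processed signals and 0.29 without ERD 1 and ERD 2. The lowest adjusted p among these 4 genes in limma was 0.410, for Nqo1 in ERD, and the intervals of all 4 in ERD against STD, -0.42 to 0.45 for Nfe2l2 among them, leave room for changes in either direction.

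Hmox2 is the constitutive haem oxygenase and the main form in brain. Its ratios were 1.08, 1.24, 1.06, 1.07 and 1.50 in ERD, 0.56, 1.01, 1.11, 0.99 and 1.57 in BLD and 0.77, 0.64, 0.97, 0.14 and 0.71 in STD. ERD was above STD on all arrays, and BLD 1 was below 4 of the 5 STD arrays. The difference was 0.54 ± 0.18 (SE) in ERD and 0.40 ± 0.18 in BLD against STD (adjusted p = 0.200 and 0.452). A further probe gave 0.12 and 0.30, and the mean over both probes 0.33 and 0.35.

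The ferritin chains store iron, which otherwise feeds peroxidation. The light chain Ftl1 had ratios of -0.40, -1.04, -0.21, -0.62 and -0.81 in ERD, -0.60, -0.39, -0.89, -0.07 and -0.89 in BLD and -0.28, -0.60, -0.21, -0.48 and -0.09 in STD. All 3 diets overlapped. Its difference from STD was -0.29 ± 0.18 (SE) in ERD and -0.24 ± 0.18 in BLD (adjusted p = 0.478 and 0.641), and that of the heavy chain Fth1 was -0.06 and -0.18.

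Catalase had the largest difference of the set and the widest error. Cat had ratios of 2.71, 3.65, 2.45, 5.64 and 1.19 in ERD, 0.63, 5.82, 4.58, 1.58 and 2.10 in BLD and 1.04, 0.98, 0.67, 1.05 and 0.25 in STD. ERD was above STD on all arrays, BLD 1 was within the STD range, and the highest values, 5.82, 5.64 and 4.58, came from the 3 arrays of slide 1. The difference was 2.33 ± 0.89 (SE) for ERD and 2.15 ± 0.89 for BLD against STD, 5.04-fold and 4.43-fold, with adjusted p of 0.251 and 0.441 in limma. Without slide 1 it was 1.71 for ERD and 0.64 for BLD, and with scan day as a block 1.77 and 0.45. Within slides ERD exceeded STD by 2.67, 1.42 and 0.14 (slides 4, 5 and 7). The Cy3 reference differed by 0.00 between ERD and STD.

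A further Cat probe was well above background on 4 arrays, BLD 4, BLD 5, STD 1 and STD 2, with ratios of -0.23, -0.27, -0.18 and -0.22, and was not tested. The probe used read 1.58, 2.10, 1.04 and 0.98 on these arrays, so the probes lay on opposite sides of the reference. Which of them reads Cat more closely was not tested. The further probe was not well above background on the slide 1 arrays, so it cannot be set against the probe used there. The Cat profile was shared with many other genes, a pattern looked for after the values were seen. Over the 15 arrays 147 of the 22562 genes (0.652%), 53 of them with a symbol, had r of at least 0.95 with Cat. The highest r, 0.994, was that of an unnamed probe, and among genes with a symbol Pdzrn3 (0.990), Triobp (0.989), Pign (0.989) and Cdc27 (0.988) were the most alike. Of the 147 genes 0 were called between ERD and STD, and their differences ran from 0.30 to 2.65 with a median of 1.21. The other members given by array had between 0 and 12 such genes. Snap25, a synaptic protein of neurons, was also highest on slide 1, at 5.43 on ERD 4, 5.36 on BLD 2 and 4.09 on BLD 3, where the other 12 arrays lay between 1.69 and 3.93. What the alike genes share was not tested, and the arrays of one slide share a hybridisation.

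**Figure D3:**
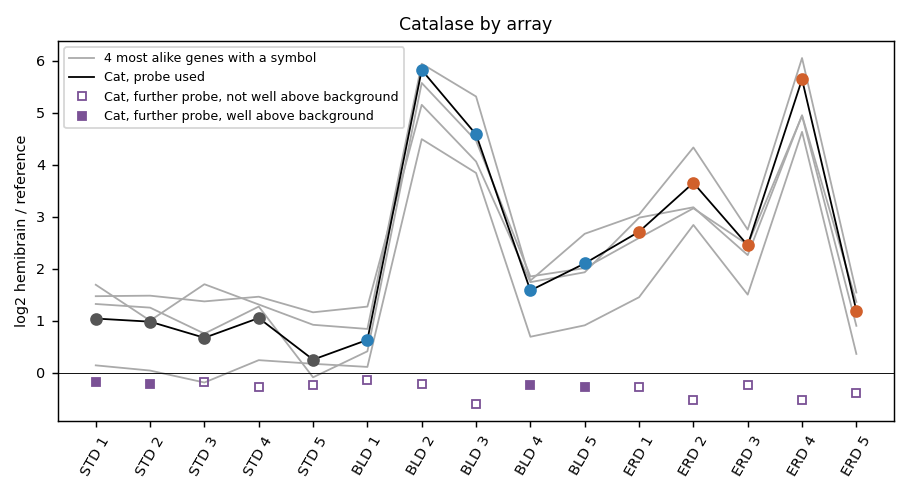
Log2 ratio of hemibrain to reference (y axis) of Cat on each array (x axis), with the 4 most alike genes that have a symbol in grey and the further Cat probe as purple squares, filled on the 4 arrays where it was well above background. Cat and the grey lines peak on ERD 4, BLD 2 and BLD 3, where the further probe was not well above background.

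Glutathione reductase (Gsr) regenerates glutathione. Gsr, the microsomal transferase Mgst3 and the mitochondrial peroxiredoxin Prdx3 had their lowest values on ERD 1 and ERD 2. Gsr had ratios of -2.61, -3.03, -0.94, -1.39 and -1.15 in ERD, -1.04, -0.78, -1.15, -0.72 and -1.19 in BLD and -0.62, -1.01, -0.47, -1.01 and -0.41 in STD. Mgst3 had ratios of -1.92, -2.52, 1.95, 0.99 and 0.92 in ERD, 1.20, 1.48, 0.42, 1.92 and 1.05 in BLD and 1.61, 1.19, 1.66, 1.28 and 2.40 in STD. Prdx3, read by 10 replicate spots, had ratios of -2.30, -3.17, -0.75, -1.23 and -0.75 in ERD, -0.74, -0.66, -1.29, -0.53 and -0.93 in BLD and -0.90, -0.73, -0.92, -0.94 and -0.90 in STD. The gap between these 2 arrays and the lowest of the other 13 was 1.21 for Gsr, 2.34 for Mgst3 and 1.01 for Prdx3. Such a gap of over 1 was found in 60 of 22562 genes (0.266%), and these 3 members are among them. ERD 4 and BLD 3 also lay below every STD array for these 3 members. ERD 5 and BLD 5 did so for Gsr and Mgst3, and BLD 1 for Gsr.

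The difference of ERD from STD was -1.12 ± 0.33 (SE) for Gsr, -1.75 ± 0.68 for Mgst3 and -0.76 ± 0.36 for Prdx3, with adjusted p of 0.161, 0.261 and 0.346 in limma. Without ERD 1 and ERD 2 it was -0.46 for Gsr, -0.34 for Mgst3 and -0.03 for Prdx3. Mgst3 and Prdx3 were not above background on ERD 1, so their values there are bounds set by the background, and the processed signals gave -2.74 for Mgst3, -1.84 for Prdx3 and -1.35 for Gsr. A further Mgst3 probe gave -1.37 and was low on the same arrays (-1.42 and -2.29). A further Gsr probe gave -0.51 and was at -3.25 on ERD 2 and -1.81 on ERD 1, where it was within the range of the other arrays. ERD 1 and ERD 2 came from different slides, and ERD 1 had the fewest spots above background; their part in these values was not tested.

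**Figure D4:**
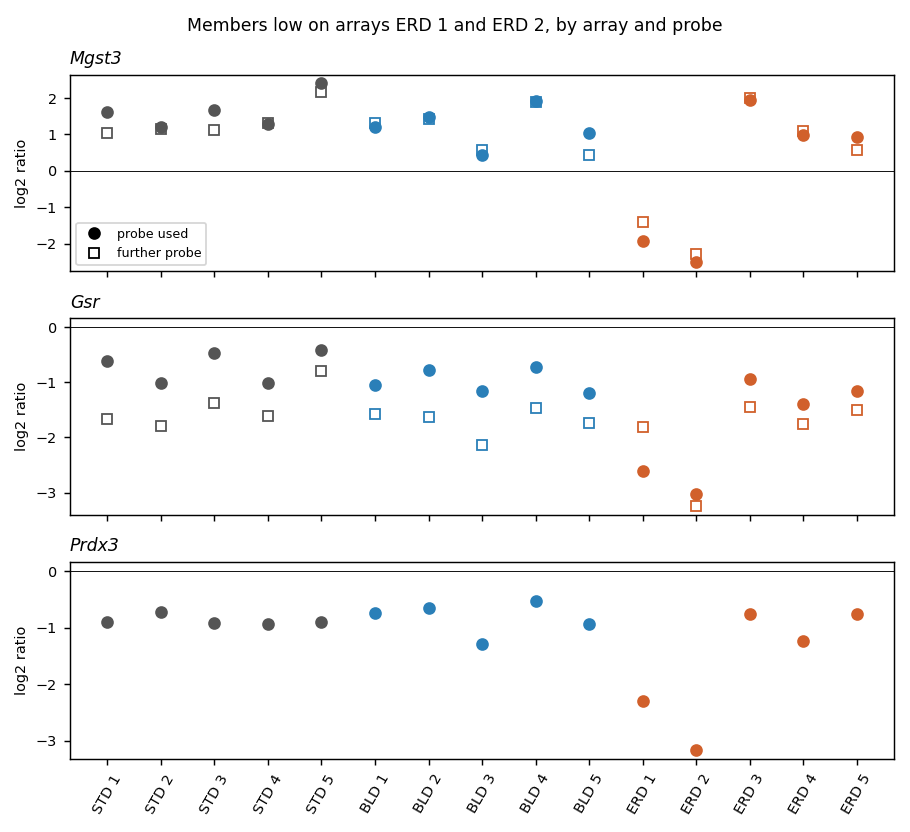
Log2 ratio (y axis) of Mgst3, Gsr and Prdx3 on each array (x axis), coloured by diet, with filled circles for the probe used and open squares for a further probe. ERD 1 and ERD 2 lie below the other 13 arrays for the probes used.

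The spread of the members within a diet followed that of all genes. The median SD over members was 0.27 in ERD, 0.26 in BLD and 0.22 in STD, where all genes gave 0.27, 0.25 and 0.19. Values over 1 away from the median of their diet were found for 8 members on ERD 1, 3 on ERD 2, 2 on BLD 3, 1 on each of ERD 3, ERD 4, ERD 5, BLD 1 and BLD 2 and 0 on the other 7 arrays. Of all genes, 2.9% were that far below and 1.26% above on ERD 1, and 1.2% and 3.66% on ERD 2. On ERD 1 the members were Prdx3, Gpx3, Gsr and Mgst3 (low) and Prdx2, Txn1, Nfe2l2 and Fth1 (high), and Prdx3, Gpx3 and Mgst3 were not above background there. On ERD 2 they were Prdx3, Gsr and Mgst3 (low). The member was Cat on ERD 4, ERD 5, BLD 1 and BLD 2 and Mgst3 on ERD 3, and those on BLD 3 were Cat and Keap1.

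**Figure D5:**
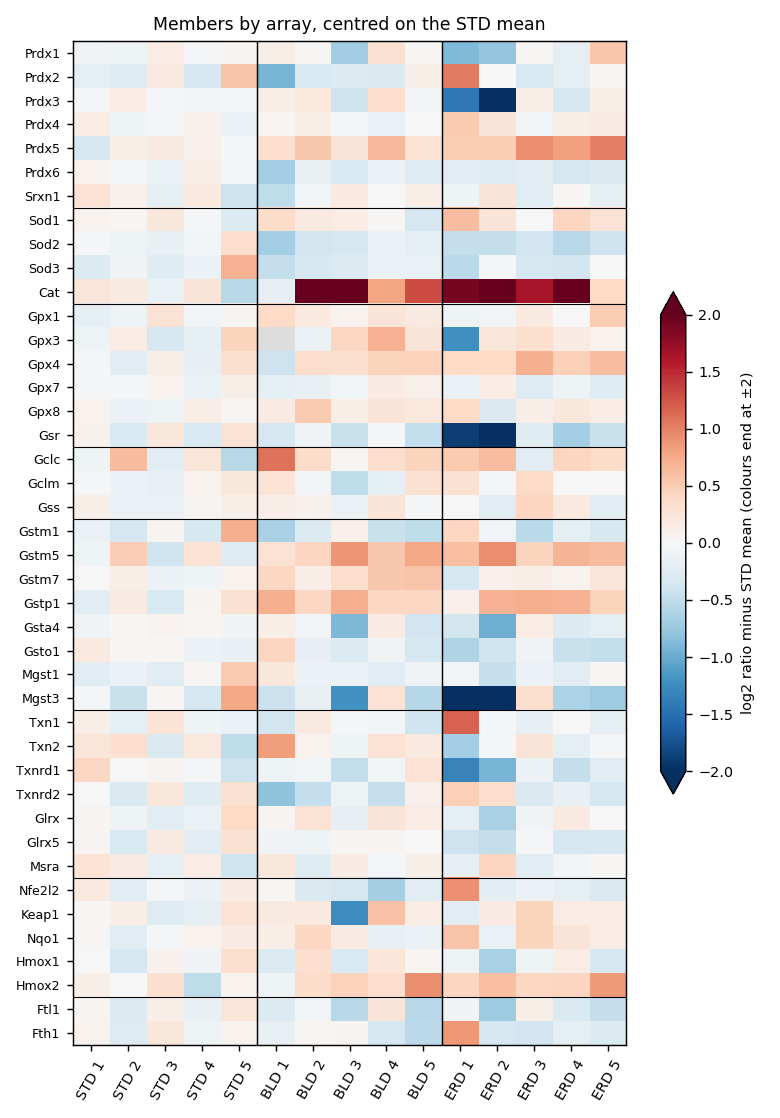
Log2 ratio minus the STD mean (colour, ending at 2 in each direction) of the 42 members (rows, by family) on the 15 arrays (columns, by diet). Prdx5, Gstm5 and Gstp1 are mostly red over ERD and BLD, and the columns ERD 1 and ERD 2 hold the darkest blue cells.

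The 6 members listed here as mitochondrial did not share a direction. Against STD, ERD was higher for Prdx5 (0.75) and near 0 for Txnrd2 (0.01), and the values were -0.76 for Prdx3, -0.46 for Sod2, -0.32 for Glrx5 and -0.13 for Txn2. Their median was -0.23, where all genes gave 0.02. Without ERD 1 and ERD 2 the values were -0.03 for Prdx3, -0.45 for Sod2, -0.23 for Glrx5 and -0.26 for Txnrd2. Prdx5 (0.92) and Txn2 (0.01) were then above 0.

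Further probes of the same gene bear on how far a value can be trusted. There were 12 further measured probes of 11 members, and in ERD against STD 6 of them lay within 0.3 of the probe used and 6 differed by more. The latter belonged to Gsr, Gstp1, Hmox1 (0.31 against -0.22), Hmox2, Mgst3 and Prdx6. Probes that were close in ERD could differ in BLD against STD, as for Gstm1 (further probe 0.56, probe used -0.35). Prdx5, Sod2, Gpx4, Gstm5 and Txnrd1 had no further probe.

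A wider list of 74 genes around the same pathways, from the NADPH-supplying pentose phosphate enzymes to iron transport, had 66 measured. Of these 0 were called in limma in any comparison. In ERD against STD 37 were higher and 29 lower, with 8 higher and 3 lower at an unadjusted p under 0.05 (16.7%, against 14.6% of all genes) and a median of 0.06. The 4 with the lowest p in the F test were higher in value on both diets. G6pdx, which supplies NADPH, was at 0.59 in ERD and 0.49 in BLD (adjusted p = 0.175 and 0.419), and the redox sensor Park7 at 0.52 and 0.40 (0.142 and 0.413). The transferase Gstz1 was at 0.52 and 0.31 (0.111 and 0.441), and the biliverdin reductase Blvra, which acts after the haem oxygenases, at 0.38 and 0.43 (0.165 and 0.266). In BLD against STD 4 were higher and 4 lower at an unadjusted p under 0.05 (12.1%, against 10.8% of all genes), and in ERD against BLD 2 were higher and 0 lower (3.03%, against 10.4%).

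Marker genes of cell types were compared in the same fit, with 0 called in limma in each of the 8 lists. Of 8 neuronal markers 7 had lower means in ERD than in STD (median -0.22), as had 7 of 8 oligodendrocyte markers (-0.25). Of 8 astrocyte markers 6 were lower (-0.13), Slc1a3 among them at 0.00. Microglia, endothelium and choroid plexus each had 5 of 8 lower. Higher means were found for 6 of 8 meningeal fibroblast markers, 3 of the 5 measured blood markers and 52.9% of all genes. The higher neuronal marker was Snap25, with the largest difference of its list, 1.38 in ERD and 1.27 in BLD against STD (adjusted p = 0.259 and 0.441). Gfap, an astrocyte filament, was at 1.04 in ERD and 1.12 in BLD (adjusted p = 0.121 and 0.219). Aqp4, the other higher astrocyte marker, was at 0.76 and 0.30 (adjusted p = 0.349 and 0.792). Of the 8 blood markers 5 were measured. Their median difference from the STD mean ran from -0.08 to 0.27 on the ERD arrays, -0.21 to 0.67 on the BLD arrays and -0.12 to 0.10 on the STD arrays. Red cells are rich in catalase, Prdx2 and Gpx1, and Hba-a1 was high in all diets, at 4.40, 4.48 and 4.24 in ERD, BLD and STD. Hbb-b1, not above background on ERD 1, was at 0.65, 1.88 and 1.48, and Alas2, which makes haem in red cells, at 1.03, 1.87 and 1.08. The part of cell composition in the members' values was not tested.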

How the data were processed

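RNA was measured on 15 Agilent 2-colour arrays, 5 per diet, with hemibrain RNA in Cy5 on every array, so a dye effect was not estimated. The labels do not say whether samples of a diet came from separate animals, and p-values then measure the spread between samples, which may be technical. The deposited scanner files hold spot intensity values, as median pixel intensities of spot and local background, per the file headers. The series' own values are deposited log10 ratios of Cy5 over Cy3, equal to those in the scanner files (0 values differed by over 1e-06). The file headers name Feature Extraction 11.5.1.1 from Agilent and an array design on build mm9, whereas the submitters' processing notes name 10.7. Promoter coordinates come from another build, GRCm38.p6, and were not joined to array coordinates.

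Median intensities were corrected with normexp (offset 50), which pulls ratios of dim spots toward 0, and normalized by loess within arrays, control spots at weight 0. Outlier spots (0.574%) were left out and spots of a probe averaged. A probe was kept where its Cy5 signal was well above background on 5 or more arrays and 8 or more values remained. A single limma model (limma 3.58.1 and R 4.3.3, with version 1.17.8 of data.table) over 15 arrays (12 residual degrees of freedom) gave the 2-sided comparisons and the F test. P-values were adjusted by Benjamini-Hochberg over all 22562 genes, and genes under 0.05 were called. The median standard error of a log2 difference between ERD and STD was 0.16. The procedure was tested on simulated arrays. The number of arrays limits the precision.

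Every array value was given for members past the threshold in any comparison and for those of lowest F test p until 14 were taken, plus the lowest of each family without one. Prdx3 was added after its values were seen. The members and lists were chosen with earlier results of these data known. There were 32 alternatives, among them each array left out, other normalizations, probe rules and filters, and blocks for slide or for scan day. Leaving out ERD 1 with ERD 2, and leaving out slide 1, were chosen after seeing the data. Figures were drawn with matplotlib 3.10.9 (Python 3.11.15, pandas 2.3.3).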

Additional observations from a re-analysis of the deposited data

Results flagged for a closer look

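Each of the 126 combinations of a member and a diet was examined for a single array far from the other 4, by Dixon's criterion, which chance meets in about 1 of 20 groups. It was met in 12 of the 126, and 6 of the 12 involved ERD 1. On ERD 1 the log2 ratios were 1.09 for Prdx2 (others -0.25 to 0.09), 1.52 for Fth1 (0.27 to 0.48), -0.76 for Txn1 (-2.13 to -1.93) and -1.42 for Nfe2l2 (-2.63 to -2.46), all high. Gpx3 (0.24, others 1.54 to 1.79) and Gstm7 (0.07, others 0.50 to 0.67) were low there, where neither was well above background, so both values are bounds set by the background. ERD 1 also had the fewest spots above background, and the part of that in these values was not tested.

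On BLD 3, Prdx1 (-2.68, others -1.95 to -1.68) and Keap1 (-1.06, others 0.35 to 0.79) were low. Gpx4 on BLD 1 was at 0.47, where the other BLD arrays lay between 1.21 and 1.34. On STD 5, Sod2 (0.43, others -0.08 to 0.03) and Sod3 (1.50, others 0.54 to 0.73) were high. Prdx3 on STD 2 was at -0.73, outside a narrow range of -0.94 to -0.90.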

How the results depend on the processing

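Results were recomputed under 32 alternatives. The Prdx5 difference between ERD and STD stayed between 0.67 and 0.92 and above 0 in all 32, and was called in 16 of them, with adjusted p from 0.0162 to 0.437 in limma. It was not called without background subtraction (0.70, adjusted p = 0.0768), with an offset of 1 (0.73, 0.0815), with slide (0.81, 0.437) or scan day (0.73, 0.0606) as a fixed block, with only the 2 diets compared (0.75, 0.0764), without the 3 least correlated arrays (0.82, 0.129) and without slide 1 (0.74, 0.158). The number of members called there was 0 in place of 1, and it ran from 0 to 1 with single arrays left out. In the F test 1 member was called, in place of 0, from Cy5 alone, with slide as a random block and with array weights. In BLD against STD and ERD against BLD 0 members were called under every alternative. No paired analysis was possible because the replicate numbers only follow the order of deposit and tie no arrays together. Slide, which some arrays of different diets share, was used as a block instead.

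The number of all genes called between ERD and STD, 49, became 32 with probes above background on all arrays, 1 with slide as a fixed block, 102 with slide as a random block, 11 with scan day as a block, 22 with only the 2 diets compared, 31 without ERD 1 and ERD 2, 124 with array weights and 0 without the 3 least correlated arrays or without slide 1. It ran from 5 (without ERD 4) to 172 (without ERD 3). Between BLD and STD the 2 became 1 from processed signals, without background subtraction, with an offset of 1, with scan day and with only the 2 diets, 5 without a filter and with the strict filter, 0 with slide as a fixed block, 7 with it as a random block, 23 with array weights and 9 with a trended, robust prior, and ran from 1 to 10 with single arrays left out. Between ERD and BLD the 0 became 1 with slide as a fixed block, with only the 2 diets and without slide 1, and ran from 0 to 1. The median member difference, -0.02 in ERD against STD, was -0.12 with an offset of 1 and ran from -0.09 to 0.04 with single arrays left out. It became -0.10 in BLD against STD from Cy5 alone and -0.10 in ERD against BLD without slide 1. These causes were not tested. Members near background, such as Mgst3 and Prdx3 on ERD 1, have only a bound there.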
